A study of Mus musculus with 9 samples.

Results

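The genes described are claudins and other components of the tight junction, taken as a list of 34 symbols and found on the array by gene name alone. The list holds 21 claudins (Cldn1 to Cldn19, Cldn22 and Cldn23), the MARVEL proteins Ocln, Marveld2 and Marveld3, the junctional adhesion molecules F11r, Jam2 and Jam3, and 7 scaffold genes (Tjp1, Tjp3, Cgn, Cgnl1, Pard3, Magi1 and Magi3). Of these, 33 were found, on 43 probes, among 31829 gene names on 39429 probes, and no probe carries the symbol Cldn10. Expression was measured on 9 dual-colour Agilent arrays, 3 each for the choroid (CH), the retinal pigment epithelium (RPE) and the photoreceptors (PR) of female C57BL/6 mice, of the substrain C57BL/6JOlaHsd by the study's methods. The labels give an age of 6 months with a range of 2 weeks, and the study's methods give a slightly younger age. The mice were healthy and untreated, and each tissue was laser dissected from cryosections of 3 eyes. By those methods 1 whole eye served each sample, and the PR were cut from thicker sections than the RPE and CH. Amplified RNA of the dissected tissue carried Cy5 and was hybridised against 1 common Cy3 reference of mouse RPE and choroid RNA, so the value of a gene on an array is the log2 ratio of tissue to that reference. Summed marker signals, percentiles and lower bounds of a fold are of Cy5 alone and are named as such.

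Tight junctions seal the space between neighbouring epithelial or endothelial cells. Claudins are membrane proteins with several membrane-spanning segments whose outer loops join across the cleft, and the claudins present decide which ions and solutes can pass: some tighten the seal and others, such as claudin-2, form pores. Occludin and its MARVEL relatives and the junctional adhesion molecules run beside them, and zonula occludens proteins, cingulins, MAGI proteins and Pard3 tie the strands to actin and to the polarity machinery. In the eye, the junctions of the RPE form the outer blood-retina barrier, the endothelium of the choriocapillaris is fenestrated and leaky, and photoreceptors adhere to Müller glia at the outer limiting membrane, which is built from adherens junctions and polarity proteins.

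The promoters of 4 claudins are shown because these genes carry the clearest differences below: Cldn2 is the member called in the RPE over both neighbours, Cldn11 the member called in the choroid over the RPE, and Cldn1 and Cldn5 have the largest differences from the PR. Each sequence runs from 250 bases before the annotated start to 50 bases after it, from RefSeq on GRCm38.p6, chromosome X:139800558-139800857 (plus strand) for Cldn2, 16:26371790-26372089 (minus strand) for Cldn1, 16:18776597-18776896 (plus strand) for Cldn5 and 3:31149670-31149969 (plus strand) for Cldn11. Capitals mark a TATA box (TATAAA), a GC box (GGGCGG, or CCGCCC where it lies on the other strand) or an E-box (CACGTG), which were searched on both strands and do not overlap each other here.

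Cldn2 promoter: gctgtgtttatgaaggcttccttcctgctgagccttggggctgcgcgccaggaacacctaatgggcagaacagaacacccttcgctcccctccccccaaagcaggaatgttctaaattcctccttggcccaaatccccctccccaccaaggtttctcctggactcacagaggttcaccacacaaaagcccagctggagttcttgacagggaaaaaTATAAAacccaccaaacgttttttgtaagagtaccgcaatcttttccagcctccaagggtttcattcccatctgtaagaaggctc

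Cldn1 promoter: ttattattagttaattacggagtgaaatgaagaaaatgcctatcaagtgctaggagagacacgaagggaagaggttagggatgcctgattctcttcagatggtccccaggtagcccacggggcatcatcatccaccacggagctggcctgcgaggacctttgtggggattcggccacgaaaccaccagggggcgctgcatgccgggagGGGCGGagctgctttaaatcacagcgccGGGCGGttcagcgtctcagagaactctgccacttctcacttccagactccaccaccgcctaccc

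Cldn5 promoter: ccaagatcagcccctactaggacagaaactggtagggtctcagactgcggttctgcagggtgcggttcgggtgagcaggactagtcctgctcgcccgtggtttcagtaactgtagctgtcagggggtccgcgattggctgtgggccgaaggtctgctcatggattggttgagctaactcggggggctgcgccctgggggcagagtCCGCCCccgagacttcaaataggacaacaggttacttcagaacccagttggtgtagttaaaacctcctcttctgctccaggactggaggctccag

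Cldn11 promoter: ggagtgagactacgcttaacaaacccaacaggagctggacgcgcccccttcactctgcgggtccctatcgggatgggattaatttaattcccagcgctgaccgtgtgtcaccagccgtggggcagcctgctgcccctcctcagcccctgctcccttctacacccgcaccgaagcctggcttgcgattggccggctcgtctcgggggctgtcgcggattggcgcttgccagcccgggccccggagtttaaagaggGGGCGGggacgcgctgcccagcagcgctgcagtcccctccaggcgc

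The Cldn2 window holds 1 TATA box, 35 bases before the start, and no GC box. The Cldn1 window holds 2 GC boxes, 42 and 14 bases before the start, the Cldn5 window holds 1 at 45 bases before the start on the other strand, and the Cldn11 window holds 1 just after the start. The G and C content was 51.3% for Cldn2, 56.0% for Cldn1, 58.3% for Cldn5 and 66.3% for Cldn11. No E-box was found in these 4 windows. Of the 27 listed genes with a promoter in the table, 20 (74.1%) had a GC box in at least 1 window, 3 (11.1%) a TATA box and 2 (7.41%) an E-box. Over all 32851 promoter windows the shares were 35.7%, 13.6% and 7.15%. These are counts of letters and say nothing about what binds there. The second share is over windows and the first over genes, some of which have several windows.

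Probes well above background in Cy5 made up between 62.0% and 71.2% of all probes on 8 arrays and 91.6% on RPE 2, and each member that was well above background on 1 array alone was so on RPE 2. CH 1, CH 3, RPE 1 and RPE 3 share a slide, CH 2, RPE 2 and PR 2 share another, and PR 1 and PR 3 lie on the third. RPE, rod and fibroblast markers mostly moved in the direction of the labels. Of the RPE markers 5 of 7 (not Rgr and Best1) were called higher in the RPE than the CH. All 7 rod markers were higher in the PR, and all 6 fibroblast markers were higher in the CH than the RPE. Endothelial markers did not separate the CH from the RPE: 0 of 7 were called, with a median RPE minus CH of 0.06. Of the RPE markers, Ttr was saturated on all 3 arrays of both the RPE and the CH. Rpe65, Rdh5 and Rgr were saturated on all 3 RPE arrays, so their RPE minus CH differences are limited by the scanner. Best1 was well above background on no CH array and on 1 RPE array. RPE markers were also present in the CH, where 6 of 7 were called higher than the PR. In such bulk samples fewer cells of a type and less RNA per cell cannot be told apart.

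A difference was called when its fold change was above 2.5 and its limma p-value, with B-H (Benjamini-Hochberg) adjustment across the 39429 probes, was below 0.01. Each gene is given at its brightest probe. The 3 comparisons share arrays and are therefore not independent. Between the RPE and the CH, 1 of 33 tight junction genes was called higher in the RPE (Cldn2), where 0.179% of all genes were, and 1 was called higher in the CH (Cldn11), where 1.74% of all genes were. Without the fold threshold, 5 of 33 had an adjusted p below 0.01 in this comparison, 4 of them higher in the RPE, beside 12.3% of all genes. An unadjusted limma p below 0.05 was found for 14 of 33, beside 33.5% of all genes. Between the RPE and the PR, 9 of 33 were called higher in the RPE (10.9% of all genes) and 3 higher in the PR (5.19% of all genes). Between the CH and the PR, 8 were called higher in the CH (12.7% of all genes) and 3 higher in the PR (6.01% of all genes). The median log2 difference over the 33 genes was 0.06 for RPE minus CH, 0.30 for RPE minus PR and 0.06 for CH minus PR, beside 0.03, -0.005 and -0.05 over all genes.

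**Figure D1:**
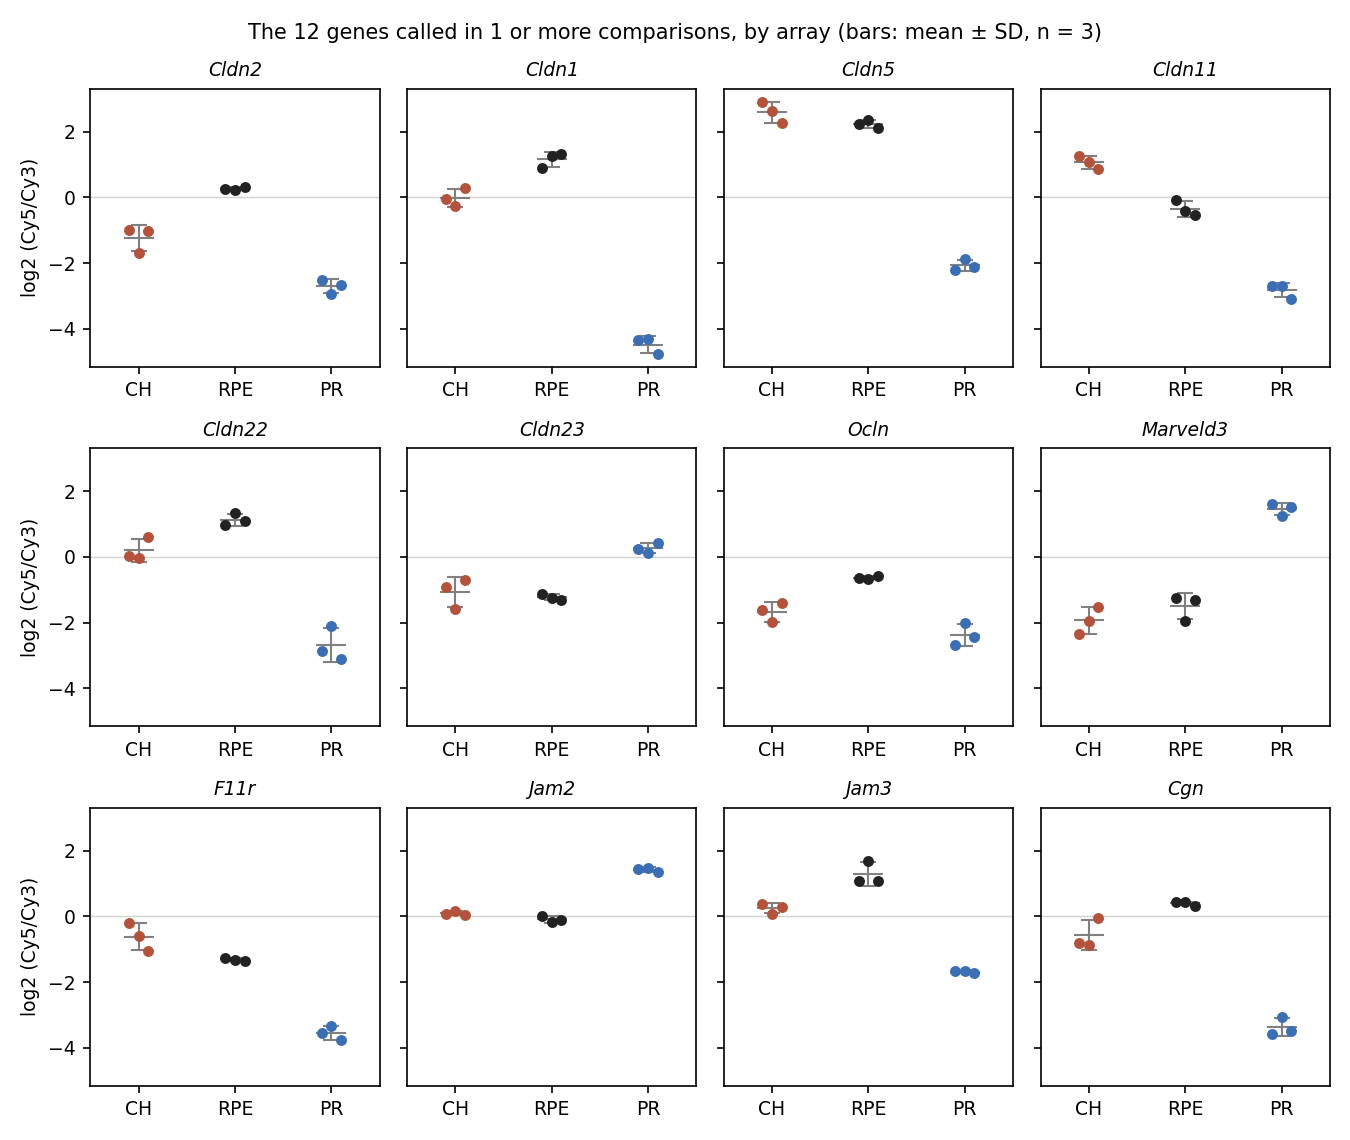
Each panel shows 1 of the 12 genes called in at least 1 comparison, with log2 (Cy5/Cy3) on the vertical axis and the 3 arrays of the choroid (CH), RPE and photoreceptors (PR) as points. Grey bars are the mean and SD of 3 arrays. The PR points lie below both other tissues in 9 panels and above both in the panels of Cldn23, Marveld3 and Jam2.

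Claudin-2, which forms channels for cations and water, was highest in the RPE. The log2 ratio of Cldn2 was 0.27, 0.23 and 0.33 on RPE 1 to 3, -0.99, -1.69 and -1.02 on CH 1 to 3, and -2.50, -2.93 and -2.67 on PR 1 to 3. The tissues did not overlap, and the 3 RPE values lay close together. The RPE exceeded the CH by 1.51 (95% interval 1.10 to 1.93, 2.85-fold, adjusted p 0.000614) and the PR by 2.98 (2.56 to 3.39, 7.89-fold, adjusted p 6.35e-07). It was the single member called over both neighbours, beside 0.173% of all genes. Within slides, RPE minus CH was 1.31 on the first slide, with 2 arrays of each tissue, and 1.92 on the second, with 1 array of each. Without CH 2 the difference was 1.29, just under 2.5-fold, and the call was lost.

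The call for Cldn2 rests on its brighter probe. The array carries 2 Cldn2 probes of 60 bases, of which the first 30 bases are shown to identify them. They lie on mm9 at X:136345244-136345303 (the reported, brighter probe) and X:136343889-136343948, both on the plus strand.

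Cldn2 reported probe: agtgtggaacatctgtgaccaaggtgttgt

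Cldn2 other probe: cccaaagccaagagtgagttcaactcatac

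The other probe had the same direction against both tissues, with an RPE excess of 1.08 over the CH (adjusted p 0.0229) and 1.20 over the PR (adjusted p 0.00551), but passed neither comparison. Its CH and PR values overlapped, between -0.44 and 0.13 in the CH and between -1.01 and 0.24 in the PR.

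Claudin-1, a sealing claudin of epithelia, showed the largest difference from the PR of all members. The log2 ratio of Cldn1 was 0.89, 1.26 and 1.32 on the RPE arrays, -0.06, -0.27 and 0.28 on the CH arrays and -4.34, -4.32 and -4.76 on the PR arrays. All RPE arrays lay above all CH arrays, and the PR arrays lay far below both. RPE minus PR was 5.63 (5.23 to 6.04, adjusted p 1.36e-08) and CH minus PR was 4.46 (4.05 to 4.86, adjusted p 2.94e-08). RPE minus CH was 1.17 (0.77 to 1.58, adjusted p 0.00179), which passed the p threshold and not the fold threshold.

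Claudin-5 is the main claudin of endothelial cells. The log2 ratio of Cldn5 was 2.25, 2.36 and 2.11 on the RPE arrays, 2.90, 2.64 and 2.26 on the CH arrays and -2.20, -1.87 and -2.10 on the PR arrays. The RPE and CH arrays overlapped, and RPE minus CH was -0.36 (-0.72 to 0.01, adjusted p 0.158). The RPE exceeded the PR by 4.30 (3.94 to 4.66, adjusted p 2.98e-08) and the CH did so by 4.65 (4.29 to 5.02, adjusted p 1.23e-08). The endothelial markers moved with it: 6 of 7 (not Pecam1) were called above the PR in both the RPE and the CH, and none was called between the RPE and the CH. The log2 of their summed Cy5 signal was 17.44 to 17.98 in the CH, 17.58 to 17.79 in the RPE and 13.96 to 14.36 in the PR, with all 7 well above background on all 9 arrays. Their part in the Cldn5 result was not tested.

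Claudin-11, known from myelin sheaths and from Sertoli cells of the testis, was the member called higher in the CH than the RPE. The log2 ratio of Cldn11 was 1.27, 1.07 and 0.88 on the CH arrays, -0.07, -0.43 and -0.53 on the RPE arrays, and -2.68, -2.69 and -3.08 on the PR arrays, where the probe was not well above background. No tissues overlapped. RPE minus CH was -1.41 (-1.78 to -1.05, adjusted p 0.000456), at -1.37 within the first slide and -1.5 within the second. The call was lost without CH 1, at -1.31, or without RPE 3, at -1.32. Against the PR, the fitted log2 difference was 2.47 for the RPE (adjusted p 9.21e-07) and 3.89 for the CH (adjusted p 3.49e-08). In Cy5 alone, the RPE signal was at least 4.42-fold higher and the CH signal at least 12.8-fold higher. These are lower bounds, set against the dimmest signal counted as well above background. All 6 fibroblast markers were also called higher in the CH than the RPE, with log2 summed signals of 19.79 to 19.93 in the CH and 18.08 to 18.52 in the RPE, and of 5 glia and myelin markers 1 was. Their part in the Cldn11 result was not tested.

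Cldn22 encodes a claudin of little known function. Its log2 ratio was 0.96, 1.33 and 1.09 on the RPE arrays, 0.03, -0.03 and 0.60 on the CH arrays and -2.86, -2.09 and -3.09 on the PR arrays. The RPE exceeded the PR by 3.81 (3.23 to 4.38, adjusted p 1.15e-06) and the CH exceeded it by 2.88 (adjusted p 6.51e-06), while RPE minus CH was 0.92 (0.35 to 1.50, adjusted p 0.0289). Cldn23 ran the other way. Its log2 ratio was 0.25, 0.12 and 0.42 on the PR arrays, against -1.12, -1.25 and -1.30 in the RPE and -0.93, -1.57 and -0.71 in the CH. It was the 1 claudin called higher in the PR, by a log2 difference of -1.49 for RPE minus PR (-1.92 to -1.05, adjusted p 0.000121) and -1.33 for CH minus PR (adjusted p 0.000223). The second call was lost with median centring, at -1.26, without CH 2, at -1.08, or without PR 3, at -1.25.

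The other 14 claudins found were called in no comparison. Cldn12, which is widespread in many tissues, had log2 ratios of 0.42 to 0.67 in the RPE, -0.11 to 0.42 in the CH and -0.13 to 0.11 in the PR, and RPE minus PR was 0.56 (adjusted p 0.00759), under the fold threshold. Cldn7, a claudin of many epithelia, was 0.48 above the CH in the RPE on the log2 scale (adjusted p 0.0116). Cldn3 and Cldn4, claudins of tight epithelia, had ratios of -2.43 to -1.83 and -1.15 to -0.74 in the RPE, which overlapped those of the CH. Cldn3 RPE minus CH was 0.37 (-0.36 to 1.11, adjusted p 0.48) and Cldn4 RPE minus CH was 0.37 (0.06 to 0.67, adjusted p 0.0867). The other Cldn4 probe gave 0.55 for RPE minus CH (adjusted p 0.196), and RPE minus PR was near 0 at both, at -0.009 (adjusted p 0.965) and 0.039 (adjusted p 0.924).

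Claudin-19, known for its role in the kidney and in the eye, was well above background on all 9 arrays, but its replicates scattered. The log2 ratio of Cldn19 was 0.44, -0.96 and 0.27 on the RPE arrays, -0.46 and 0.73 on the CH arrays that gave a value, and -0.01, -0.71 and 0.23 on the PR arrays. The spot on CH 1 carried an outlier mark. The 3 lowest values are those of CH 2, RPE 2 and PR 2, which share a slide. RPE minus CH was -0.22 with an interval of -1.33 to 0.89, and RPE minus PR was 0.08 (-0.91 to 1.08), and the first interval reaches a change of 2.5-fold. Cldn9 had 1 array apart, at 2.07 on RPE 3 against 0.29 and 0.07 on RPE 1 and RPE 2, and RPE minus CH was 0.72 (-0.26 to 1.69, adjusted p 0.291).

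Several claudins were dim. Cldn8 was well above background on none of the 9 arrays, and Cldn6, Cldn13 and Cldn16 were so on RPE 2 alone. Cldn17 was well above background on RPE 2 and on the 3 PR arrays, and Cldn18 on 6 arrays. Cldn14 and Cldn15 were well above background on all 9 arrays, with RPE minus CH of 0.06 (adjusted p 0.848) and -0.12 (adjusted p 0.77). Claudin genes often lie in pairs. The probes of Cldn1 and Cldn16 lie near each other on mm9 chromosome 16, at 26357372-26357431 and 26474305-26474364. As the Cldn16 probe was well above background on 1 array, no difference is given for it beside that of Cldn1.

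Cldn10 was not found by its symbol. A probe named Cldn10a, for the isoform with that name, is on the array and was not counted among the members. Its log2 ratio was -0.37, 0.16 and -0.33 on the RPE arrays, -1.43, -1.72 and -1.05 on the CH arrays and -3.06, -3.22 and -3.10 on the PR arrays. The tissues did not overlap, with RPE minus CH of 1.22 (adjusted p 0.00176), under the fold threshold, and RPE minus PR of 2.95 (adjusted p 7.38e-07).

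**Figure D2:**
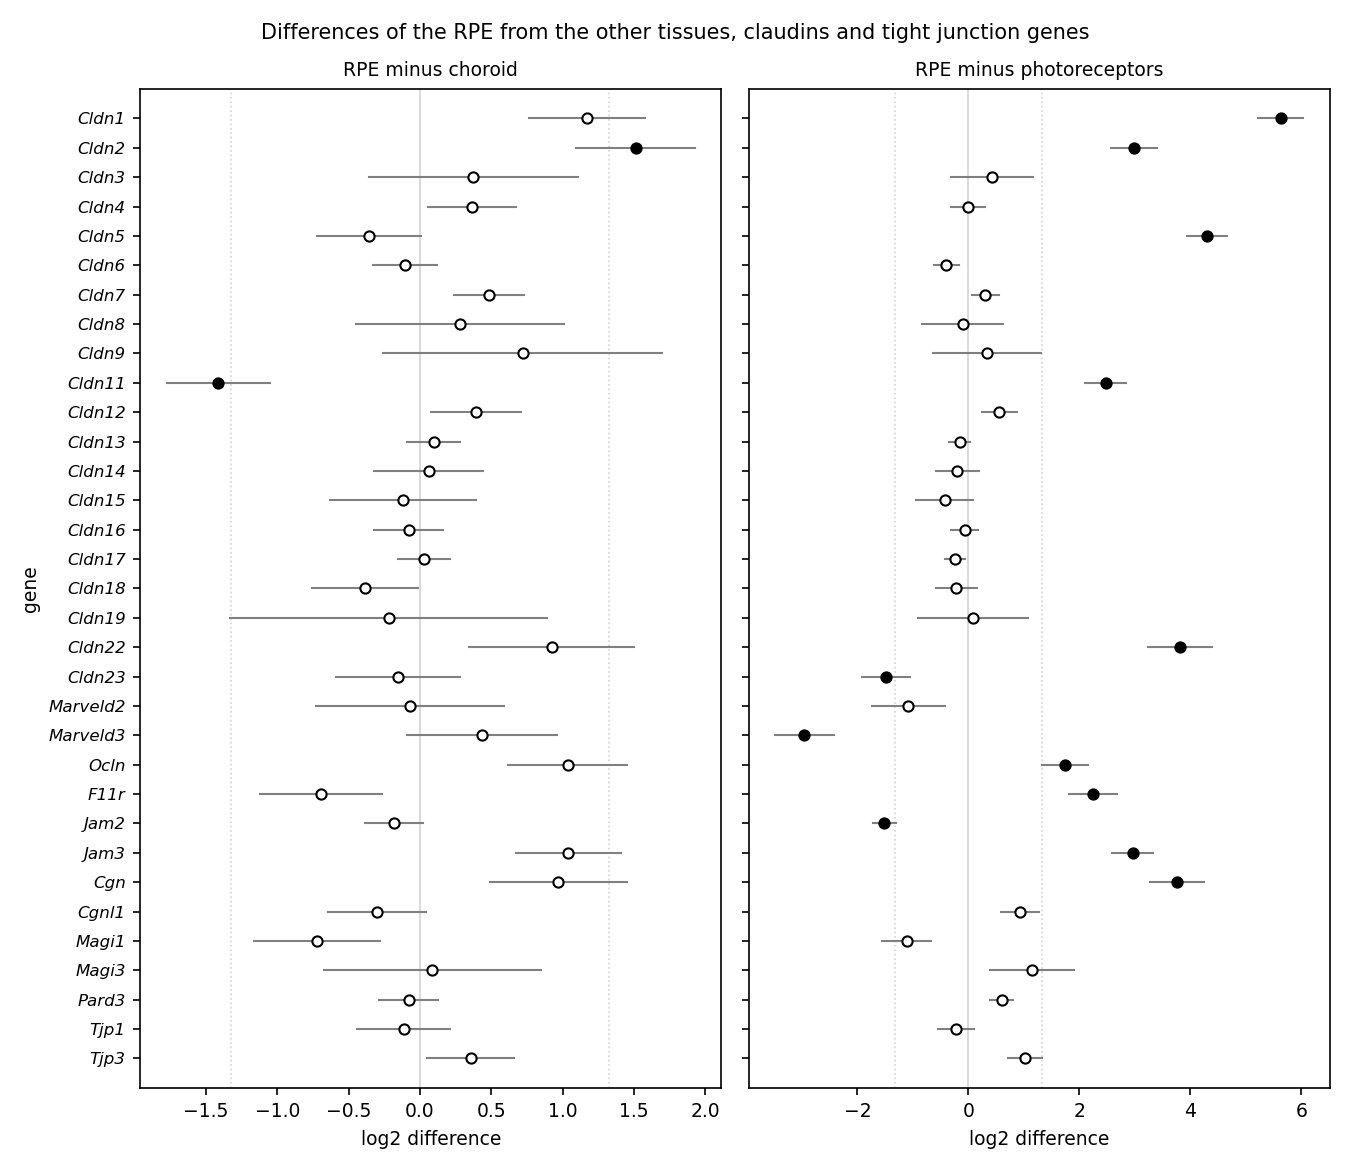
The log2 difference of the RPE from the choroid (left) and from the photoreceptors (right) is plotted for each of the 33 genes with its 95% interval, with filled points for called genes, open points for the others and dotted lines at a 2.5-fold change. On the left 2 points are filled, Cldn2 and Cldn11, and on the right 12, and the horizontal scales differ.

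The MARVEL proteins split between the tissues. Ocln encodes occludin, the first tight junction membrane protein to be known. Its log2 ratio was -0.63, -0.67 and -0.59 on the RPE arrays, -1.62, -1.99 and -1.40 on the CH arrays and -2.67, -2.0 and -2.44 on the PR arrays. At the reported probe the RPE lay above both other tissues on every array. It exceeded the PR by 1.74 (1.32 to 2.16, adjusted p 2.93e-05) and the CH by 1.04 (0.62 to 1.45, adjusted p 0.0038), and the second was under the fold threshold. With slide as a fixed block the excess over the PR was 1.19 and was not called. CH minus PR was 0.70 (adjusted p 0.00931) and was called at its other probe, at 1.54 (adjusted p 0.000886). That other probe also gave a called RPE minus PR, at 2.145 (adjusted p 0.000105). Its RPE minus CH was 0.61 (adjusted p 0.155), and the RPE and CH arrays overlapped there. Marveld3, another MARVEL protein of the junction, was highest in the PR, at 1.60, 1.25 and 1.53, against -1.23, -1.94 and -1.31 in the RPE and -2.34, -1.93 and -1.52 in the CH. RPE minus PR was -2.96 (-3.48 to -2.43, adjusted p 3.4e-06), and the other probe, placed on another transcript, gave -2.02 (adjusted p 2.05e-06). Marveld2, tricellulin, which seals the points where 3 cells meet, had RPE minus PR of -1.08 (-1.74 to -0.42, adjusted p 0.0114) and was not called. PR 1 lay at -0.39 and PR 2 and PR 3 at 0.95 and 0.65, and without PR 1 the difference was -1.48 and was called.

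The junctional adhesion molecules are immunoglobulin-like proteins that bind their own kind and leukocyte integrins. Jam3 and F11r were called higher than the PR in both the RPE and the CH, and Jam2 lower. Jam3 had ratios of 1.08, 1.70 and 1.09 in the RPE, 0.37, 0.08 and 0.30 in the CH and -1.66, -1.66 and -1.71 in the PR. It exceeded the PR by 2.96 in the RPE (2.60 to 3.33, adjusted p 2.96e-07) and exceeded the CH by 1.04 (0.67 to 1.41, adjusted p 0.00203), under the fold threshold. F11r, which encodes JAM-A, had ratios of -1.26, -1.31 and -1.35 in the RPE, -0.21, -0.59 and -1.04 in the CH and -3.56, -3.33 and -3.76 in the PR. Its RPE minus CH was -0.69 (-1.12 to -0.26, adjusted p 0.028) and was not called, and RPE minus PR was 2.24 (adjusted p 5.87e-06). Jam2 was highest in the PR, at 1.46, 1.49 and 1.35, while the RPE (0.02, -0.17 and -0.12) and the CH (0.07, 0.16 and 0.05) lay close to each other. Its RPE minus PR was -1.52 (-1.72 to -1.31, adjusted p 5.06e-07).

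The result for Jam2 also rests on the brighter of its probes. On mm9 chromosome 16 (plus strand) the reported probe lies at 84816558-84816617 and the other at 84824952-84825011, and their first 30 bases are given to identify them.

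Jam2 reported probe: ttcgtgatttctgtatgtggccttggcaca

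Jam2 other probe: ccatgaagacctgtctgtctgctgttttct

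At the other probe RPE minus PR was -0.79 (adjusted p 0.00128) and CH minus PR was -0.47 (adjusted p 0.0208), in the same direction and under the fold threshold. At the reported probe CH minus PR was -1.33 and close to that threshold, between -1.32 and -1.31 without CH 3, PR 1 or PR 2, where it was no longer called.

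Among the scaffolds, cingulin was the member called. Cgn links the junction to the actin and microtubule skeleton. Its log2 ratio was 0.43, 0.43 and 0.33 on the RPE arrays, -0.80, -0.87 and -0.05 on the CH arrays and -3.56, -3.06 and -3.48 on the PR arrays. RPE minus PR was 3.76 (3.28 to 4.24, adjusted p 3.56e-07), CH minus PR was 2.79 (adjusted p 2.21e-06) and RPE minus CH was 0.97 (0.49 to 1.45, adjusted p 0.0103), short of both thresholds. Its relative Cgnl1, paracingulin, was not well above background on any PR array and on 1 of 3 RPE arrays. Against the PR its Cy5 signal was at least 1.38-fold higher in RPE and at least 1.46-fold higher in CH. The fitted log2 differences were 0.93 (adjusted p 0.000573) and 1.23 (adjusted p 7.28e-05), and neither was called. From the Feature Extraction ratios they were 2.30 and 2.97, and both were called. CH minus PR was also called with a normexp offset of 16 (1.55), with slide as a fixed block (1.55), at a fold above 2 and without CH 3.

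Tjp1 encodes ZO-1, the scaffold that nucleates claudin strands, and was called in no comparison. Its log2 ratio lay between -0.57 and -0.08 in the RPE, between -0.26 and -0.21 in the CH and between -0.36 and 0.08 in the PR. RPE minus CH was -0.12 (-0.44 to 0.21, adjusted p 0.644) and RPE minus PR was -0.23 (-0.56 to 0.10, adjusted p 0.235), intervals that leave out a 2.5-fold change. Its array mean was lowest in the RPE. By the study's own semi-quantitative RT-PCR, normalised to beta-actin, Tjp1 was instead highest in the RPE. The cause of this disagreement was not tested. Tjp3, ZO-3, lay higher in the RPE, at -1.91 to -1.83, than in the PR, at -2.94 to -2.80, by 1.02 (0.71 to 1.33, adjusted p 0.00014), which was under the fold threshold.

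Pard3, a polarity scaffold, had 4 probes. At the brightest, RPE minus CH was -0.08 (-0.29 to 0.13) and CH minus PR was 0.68 (adjusted p 0.000132). A second probe gave CH minus PR of 1.42 (adjusted p 0.000542) and was called, and the other two gave 0.62 and 1.29. Magi1 and Magi3 are membrane-associated guanylate kinases. Magi3 RPE minus PR was 1.14 (adjusted p 0.0176) at the reported probe, which was called without RPE 3 (1.45) or PR 2 (1.40). Its other probe was well above background on 1 RPE and 1 PR array, and no direction is read from it. The 2 Magi1 probes, on the minus strand of mm9 chromosome 6 at 93632112-93632171 (reported) and 93628242-93628301, are shown by their first 30 bases.

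Magi1 reported probe: atagtttgagtagacagcaatgctctttac

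Magi1 other probe: aatcccccagagcagagaaggcggccttac

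Both gave a similar RPE minus CH, at -0.72 (adjusted p 0.0258) and -0.73 (adjusted p 0.00673). Against the PR the reported probe gave -1.11 for the RPE (adjusted p 0.000881) and -0.39 for the CH, and the other gave 0.27 for the RPE (adjusted p 0.159) and 1.00 for the CH (adjusted p 0.000234). With the log ratios of Feature Extraction, median centring, Cy5 alone or the series table the reported probe lay between -1.74 and -1.5 and was called. The probes are assigned to different RefSeq transcripts in the files, and their differences from the PR had opposite signs, though neither probe was called there in the fit of all arrays.

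The study placed tight junction genes of the RPE into 4 classes by the percentile of their signal among all probes. Signals of different probes are not on 1 scale, so the classes describe probes and no gene's level is set against another's. In the RPE, 5 of 33 genes lay above the 90th percentile (Jam3, Cldn1, Cldn5, Tjp1 and Cldn12), 17 between 50 and 90, 9 between 10 and 50, and 2 below 10 (Cldn6 and Cldn8). The classes depend on the probes ranked: when ranking was limited to probes that every RPE array showed well above background, 16 of the 25 members left fell in another class, and 2 (Cldn1 and Jam3) lay above the 90th percentile. The lowest of the first class was Cldn12, at 90.2, with a range of 88.8 to 91.7 over the 3 arrays. Cldn2 stood at 80.0 in the RPE, 66.7 in the CH and 57.0 in the PR, and Cldn1 at 94.1, 88.3 and 54.3. Cldn5 stood at 92.2 in the RPE and 94.3 in the CH, and Tjp1 above 90 in all 3 tissues. Cldn19 covered the widest range in the RPE, from 40.4 to 62.1.

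**Figure D3:**
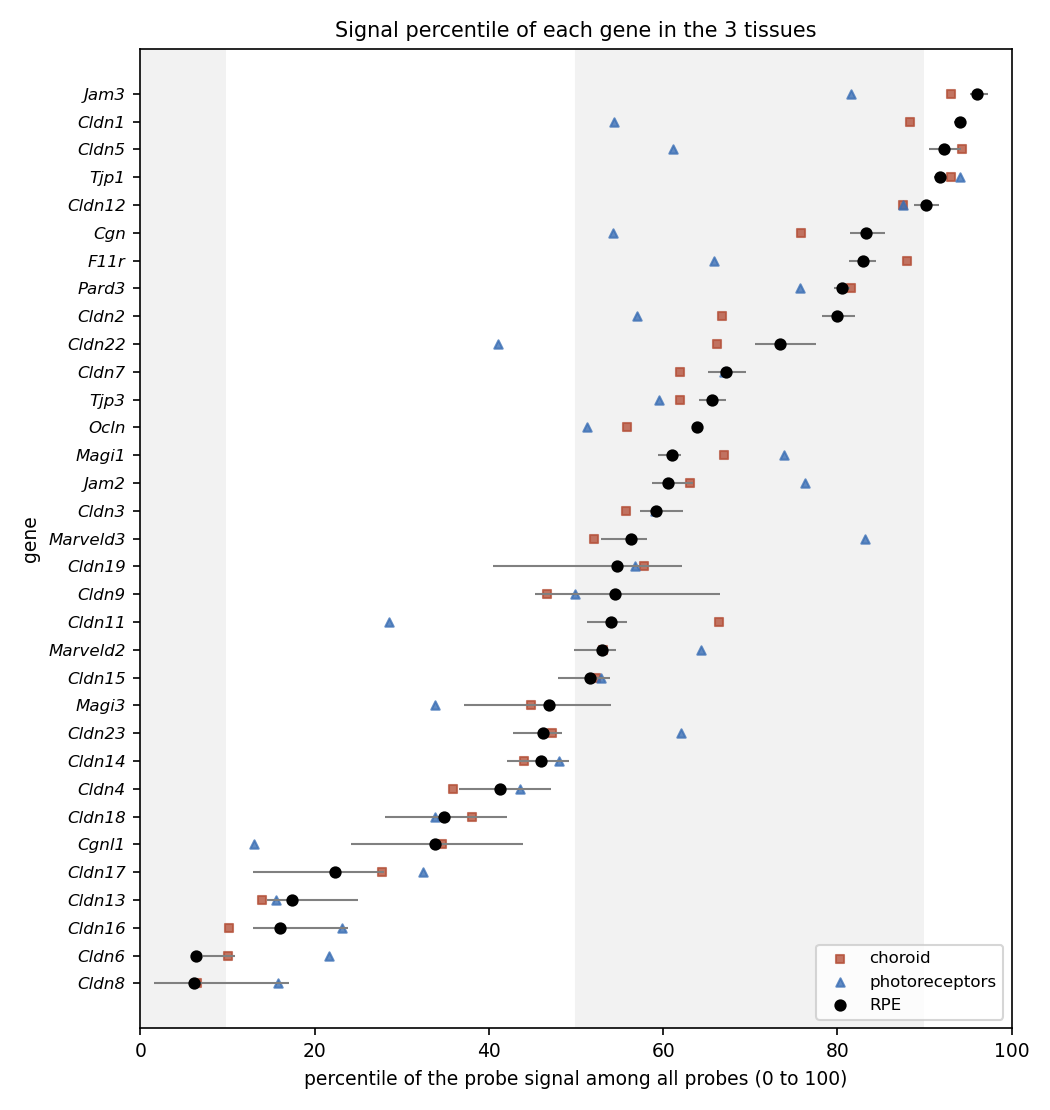
Percentile of each gene's Cy5 signal among all probes (horizontal axis, 0 to 100), for the mean of the RPE arrays (black circles), the choroid (red squares) and the photoreceptors (blue triangles). Grey lines give the lowest and highest of the 3 RPE arrays and shading separates the 4 classes. Cldn1, Cldn5 and Cgn stand far to the right of their PR triangles, and Tjp1 and Cldn12 lie close together in all tissues.

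A second list held 34 genes whose products work with tight junctions, of which 32 were on the array (Cldn24 and Asam were not found). None was called between the RPE and the CH (without CH 3, Cxadr and Ildr1 were, Ildr1 at 1.49), where 18 of 32 had an unadjusted limma p below 0.05 (33.5% of all genes) and 6 an adjusted p below 0.01 (12.3% of all genes) without reaching 2.5-fold. The largest difference was that of Cxadr, an adhesion protein of the immunoglobulin family, at 1.14 (adjusted p 0.00533). Between the RPE and the PR 8 were called higher in the RPE (10.9% of all genes) and 2 higher in the PR (5.19%), and between the CH and the PR 6 were called higher in the CH (12.7%) and 3 higher in the PR (6.01%). The median log2 difference over the 32 genes was 0.27 for RPE minus CH, 0.48 for RPE minus PR and 0.19 for CH minus PR, beside 0.03, -0.005 and -0.05 over all genes.

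The angulins recruit tricellulin to the points where 3 cells meet, and 2 of them were called above the PR in the RPE. Lsr had log2 ratios of 0.69, 0.73 and 0.53 in the RPE, -0.25, 0.00 and 0.26 in the CH and -2.67, -2.34 and -2.85 in the PR, with RPE minus PR of 3.27 (adjusted p 1.34e-07). Ildr1 was not well above background in the PR. Against that tissue the fitted log2 difference was 3.47 for the RPE (adjusted p 5.66e-06) and 2.39 for the CH (adjusted p 6.75e-05). In Cy5 alone, its signal was at least 8.75-fold higher in RPE and at least 3.95-fold higher in CH.

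Esam, an endothelial adhesion protein, had ratios of 1.36, 1.61 and 1.41 in the RPE, 1.90, 1.82 and 1.48 in the CH and -1.88, -1.47 and -2.05 in the PR. RPE minus PR was 3.26 (adjusted p 1.76e-07) and RPE minus CH was -0.27 (adjusted p 0.301), beside the same endothelial marker levels as Cldn5. The angiomotins Amot and Amotl2, which bind actin and polarity proteins, exceeded the PR in the RPE by 3.59 (adjusted p 9.76e-09) and 1.73 (adjusted p 1.55e-06). Micall2, which carries occludin to the junction, did so by 2.89 (adjusted p 2.4e-08). Amot and Micall2 were called above the PR in the CH as well, by 3.565 (adjusted p 5.95e-09) and 2.83 (adjusted p 1.72e-08). Their RPE minus CH was 0.02 and 0.06. Amotl2 was not called there, with CH minus PR of 1.23 (adjusted p 1.47e-05).

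The polarity genes were mixed. Crb3, an apical determinant of epithelia, exceeded the PR in the RPE by 1.42 (adjusted p 7.31e-05), and Pard6g by 2.23 (adjusted p 2.36e-06), with the highest mean in the CH for Pard6g. The Crb3 call was lost under 6 alternatives: without RPE 3 (1.30), from the Feature Extraction ratios (1.14), with median centring (1.26), with the mean of all probes (1.23), from the Cy5 channel alone (1.22, adjusted p 0.135) and from the series table (1.32, adjusted p 0.104). Pard6b was not well above background in the CH, with CH minus PR of -1.81 (adjusted p 1.24e-06). In Cy5 alone, its PR signal was at least 2.19-fold that of the CH. Mpdz, a scaffold with many PDZ domains, was higher in the PR, with RPE minus PR of -1.34 (adjusted p 0.000703), a call that was lost without RPE 2, RPE 3, PR 2 or PR 3 (-1.31 to -1.19). So was Csda, the Y-box factor that ZO-1 binds, with -2.57 (adjusted p 3.02e-06).

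**Figure D4:**
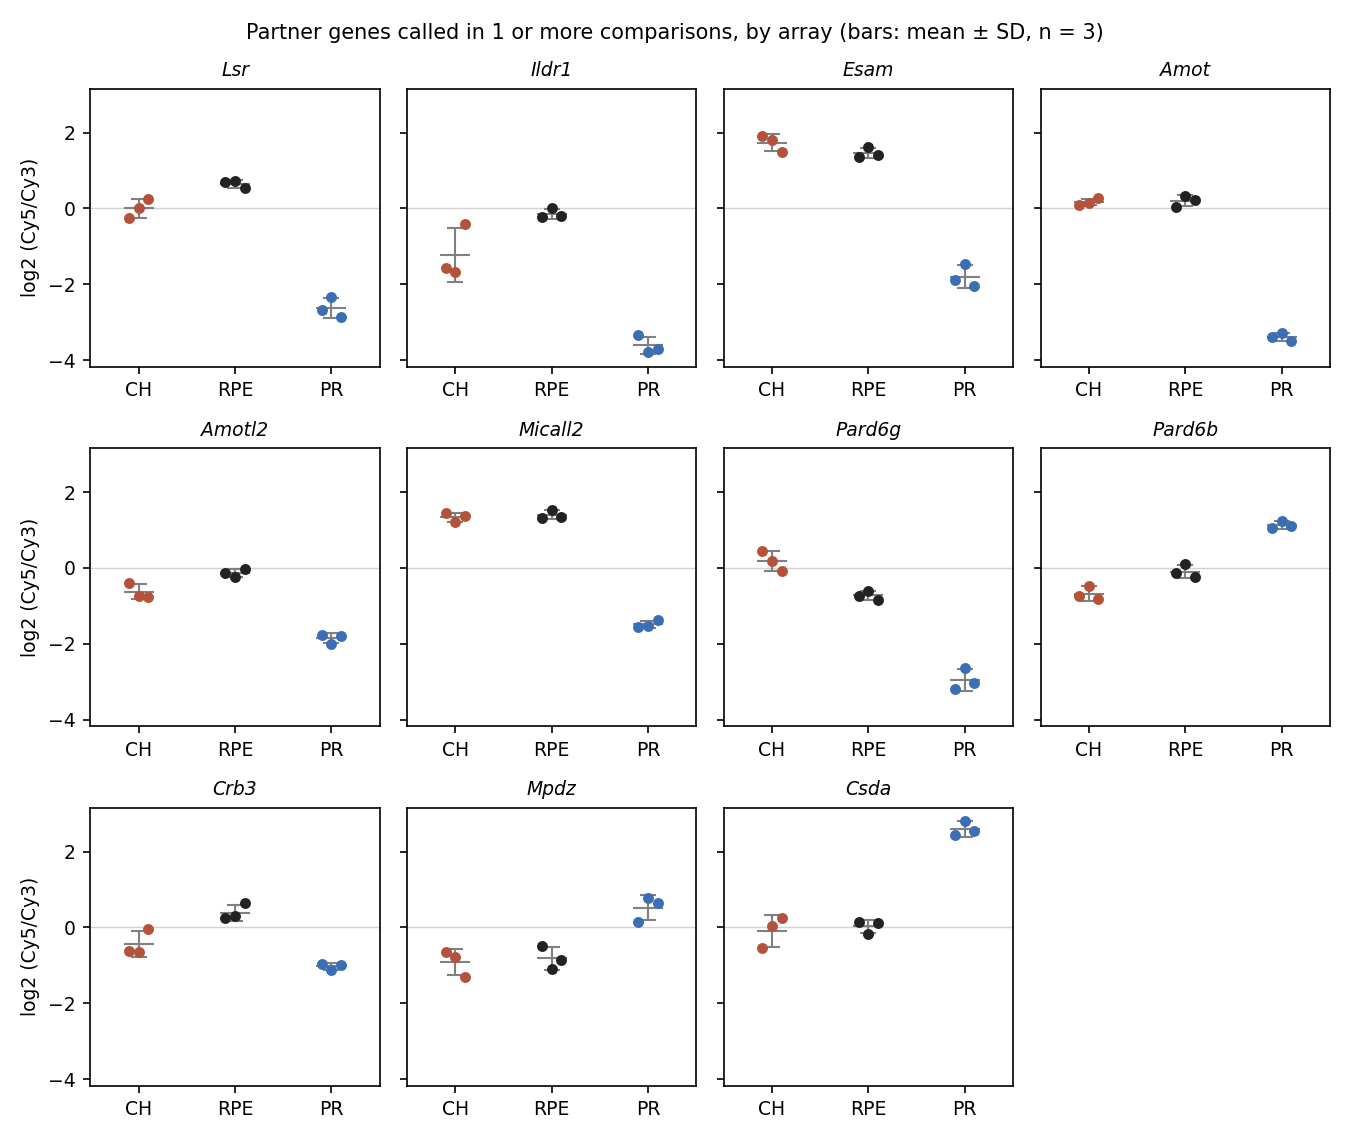
Log2 (Cy5/Cy3) on the 3 arrays of each tissue for the 11 genes of the second list called in at least 1 comparison, with the mean and SD as grey bars. Lsr, Ildr1, Esam, Amot, Amotl2, Micall2, Pard6g and Crb3 lie lowest in the PR, and Pard6b, Mpdz and Csda lie highest there.

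The slides could be compared within the second slide, which holds 1 array of each tissue. There all 12 members called between the RPE and the PR had the same direction and a difference past 2.5-fold, between 1.32 and 5.58 in size. All 11 members called between the CH and the PR kept their direction, and 10 stayed past 2.5-fold. PR 1 and PR 3 lie on a slide without other tissues, so for them slide and tissue cannot be told apart.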

How the data were processed

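Gene expression was measured on 9 dual-colour arrays (CH, RPE and PR, 3 each). The authors extracted them with Agilent Feature Extraction 9.5.3.1 and deposited its output, in which mean and background signals are intensity values as scanned and the software's log ratio of Cy5 to Cy3 is on a log10 scale. Their deposited series table gives Cy5 signals as log2 values, after steps not given in the sources used here. The log10 ratios and the series table served only as alternatives. According to the submitters' processing notes R 2.14.0 and limma were used.

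Starting from intensities, normexp with an offset of 50 served as background correction, and log2 ratios were loess normalized within arrays. Controls were excluded, as were 228 to 586 spots per array marked as outliers, and spots of a probe were averaged. Tissue means were fitted to all 9 arrays with limma 3.58.1 in R 4.3.3, and p-values were adjusted by the Benjamini-Hochberg method over 39429 probes. Genes were called at more than 2.5-fold with adjusted p below 0.01. To check the code, the fit was run on simulated arrays with independent noise and 200 changed probes. Those changes were larger than the fold threshold, so the run says nothing about calls near it. Background percentages count 31829 gene names at their brightest probe. Intervals are 95% intervals. Each lower bound of a fold compares log2 Cy5 signals after loess and Aquantile between arrays, without the Cy3 reference, and carries no test. Dyes were not swapped, and the tissue carried Cy5 on every array. Python 3.11.15 (pandas 2.3.3, numpy 2.4.6, matplotlib 3.10.9) was used for tables and plots.

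The members and all gene lists were chosen with earlier results of these data known. Of the 34 listed members, the 33 found are reported at their brightest probe, with other probes where call or direction differ; of the second list, genes called at least once are named, and Cxadr was named after its values were seen. A gene that the rule would also name is not reported here. The marker lists comprised the RPE, rods, endothelium, fibroblasts, pigment cells, glia and myelin, Müller glia, surface epithelium and red blood cells. Accessions of all 33 reported probes matched the same symbol in a RefSeq table (GRCm38.p6), and probe positions are those of the files, on mm9. Replicates are separate eyes, and the study's methods do not say from how many mice they came. Precision is limited by having 3 arrays a tissue. Alternatives covered background correction, normalization, reference channel, series table, dim and marked spots, blocks, several probes per gene, variance model, arrays fitted, both thresholds and each array left out. Protein sequences and the human arrays were not used here.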

Additional observations from a re-analysis of the deposited data

How the results depend on the processing

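No difference of a member or of a named partner gene changed direction while called under any of the alternatives. Over all comparisons and alternatives, 2520 values of members kept their side of the thresholds, 17 called ones were no longer called and 22 were newly called. For RPE against CH, where 2 members were called, 5 were called at a fold above 2 (Cldn1, Ocln and Jam3 were added) and 1 with the mean of all probes of a gene, where Cldn2 was 1.30 (adjusted p 0.00241). Without 1 array this count was between 1 and 2: Cldn2 was 1.29 without CH 2, and Cldn11 was -1.31 without CH 1 and -1.32 without RPE 3, each just under 2.5-fold. For RPE against PR it was 12 to 13 (12 in the fit of all arrays), and for CH against PR 10 to 12 (11). The Cldn2 difference of CH and PR was not called from the Feature Extraction ratios, the Cy5 channel alone, the series table or the mean of both probes (0.79). Ocln RPE minus PR was 1.19 with slide as a fixed block and was then not called, and Marveld2, at -1.79 under that block, was. For the partner genes between RPE and CH the count was 0, and 1 at a fold above 2; without 1 array it was 0 to 2, with 2 called without CH 3. For RPE against PR the partner count was 8 to 10 (10), and for CH against PR 8 to 9 (9). The number of members above the 90th percentile in the RPE was 5, and below the 10th percentile it was 2 (Cldn6 and Cldn8). A ranking limited to probes that all RPE arrays showed well above background held 25 of the 33 members. Under that ranking the counts were 2 and 1. The 1 below the 10th percentile was another gene, as Cldn6 and Cldn8 were not among the 25. In the full ranking without 1 RPE array the counts were 4 to 5 and 1 to 2. With replicate number as a block the member counts were 2, 12 and 11 and the partner counts 0, 10 and 9, as without it. The labels tie the numbers to nothing shared, although the arrays numbered 2 share a slide: the correlation of deviations was 0.1622 to 0.2876 between those and -0.077 to 0.2863 between the arrays numbered 1 or 3. Dim probes limit what can be said of Cldn6, Cldn8, Cldn13, Cldn16, Cldn17 and Cgnl1. The cause of each change was not tested.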

Other observations

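Other cell types that the dissected layers can hold were followed through their markers. Of 5 pigment cell markers 3 were called higher in the CH than the RPE (not Dct and Tyr), and all 5 were higher in both than in the PR. Tyr lay the other way, with RPE minus CH of 0.68 (adjusted p 0.00872), and 0.82 (adjusted p 0.00119) at its other probe, both under the fold threshold. Dct was saturated on all 3 arrays of both the RPE and the CH, and Tyrp1 on all 3 CH arrays. All 7 rod markers were called higher in the PR. Prph2, Gnat1 and Sag were saturated on all 3 PR arrays and were at least 1.87-fold to 2.65-fold higher there than in the RPE, and RPE minus PR on the log2 scale was -4.68 for Cnga1, -3.27 for Nrl and -3.04 for Pde6b, with Cnga1 saturated on 1 and Nrl on 2 PR arrays. None was called between the RPE and the CH, where RPE minus CH lay between 0.42 and 0.70. Of 5 Müller glia markers, Rdh10 was called above the CH in the RPE, and Rdh10 and Glul were called higher in both than in the PR. Rdh10, a retinol dehydrogenase of the visual cycle, is also known from the RPE. The other three were called in no comparison, with RPE minus PR of -0.42 for Aqp4, -0.41 for Kcnj10 and -0.69 for Slc1a3. No surface epithelium marker was called in any comparison, and of 6 red blood cell markers 1 (Alas2) was called above the PR in both the RPE and the CH.

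Cldn25, a claudin name outside the listed symbols, was called in no comparison, with a log2 difference of -0.39 for CH minus PR (adjusted p 0.00856). Cldn20, of the second list, was not well above background in the PR, with RPE minus PR of 1.06 (adjusted p 2.38e-05) and no call. In Cy5 alone, its RPE signal was at least 1.81-fold that of the PR.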
